A study of Rattus norvegicus with 8 samples.

Results

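The genes described here release arachidonic acid from membrane lipid or turn it into prostanoids, and they were measured in the adrenal glands of neonatal rats. The members were every probe set whose single annotated gene symbol was 1 of 10: the phospholipase genes Pla2g4a and Pla2g2a, the cyclooxygenase genes Ptgs1 and Ptgs2, the prostanoid synthase genes Ptgis, Ptges and Ptgds, and the arachidonate-handling genes Acsl4, Acot1 and Acot2. All 10 genes, of 10411 named on the array, had a probe set, and these made up 11 of 15866 probe sets that were not controls. The group was chosen by name around Pla2g4a, the member selected on its hypoxic and normoxic intensities in these same pools. A further probe set, annotated to both Acot1 and Acot2, is described but named for neither.

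Glands came from rat pups on postnatal day 7 that had spent their life since birth, with their dams, in 12% O2 (hypoxic) or in room air (normoxic). The labels give no genetic change and no drug in either group, and the dams of the normoxic pups had free access to food. Each sample was a pool of 24 glands from which the capsule had been removed, and each of the 4 pools per group was read on its own 1-colour array. The capsule was therefore missing from the tissue, and how much of the outermost cortex was lost with it was not tested. The p-values set the difference between groups against the spread among pools within them. The labels do not say how litters were spread over the pools, so the spread between litters is not known.

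Arachidonic acid is stored in membrane phospholipid and is freed by phospholipases A2. Cyclooxygenases convert it to an unstable intermediate, from which separate synthases make prostacyclin, prostaglandin E2 or prostaglandin D2. In steroid-making cells, including those of the adrenal cortex, arachidonate and its products are known to act in the response to trophic hormone, and an acyl-CoA synthetase (Acsl4) and a mitochondrial thioesterase (Acot2) have been described as a pair that channels arachidonate there.

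Signals are given as probe set intensity in arbitrary units, scaled by the authors so that every array had the same trimmed mean. Array medians ran from 228.6 to 249.2. The 27 probe sets for bacterial genes, designed against sequences that rats lack, serve here as the background: their median signal was 5.4 and none exceeded 83.5. All 8 measured adrenocortical markers were bright. Star, the cholesterol carrier of the mitochondrion, was never below 9378 and the side-chain cleavage gene Cyp11a1 never below 14860. The summed adrenocortical signal ran from 89739 to 122992 in normoxic and from 89170 to 131671 in hypoxic pools. Precision is limited throughout by there being 4 arrays per group.

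The upstream sequences of 2 members are shown first because these genes lie side by side: in the rat assembly GRCr8, Ptgs2 is the next protein-coding gene after Pla2g4a, and the pair is transcribed in opposite directions, away from each other. Their signals in these glands were far apart with respect to background, as described below. Each window is the 250 bases before the annotated start in the RefSeq promoter table of GRCr8, 5′ to 3′ on the strand of the gene. The annotated start may not be the one used in the adrenal gland. Capitals mark a repeated stretch in Pla2g4a (minus strand, chr13:64572353-64572602) and matches to the core of the hypoxia response element, ACGTG or GCGTG on either strand, in Ptgs2 (plus strand, chr13:64713813-64714062).
Pla2g4a: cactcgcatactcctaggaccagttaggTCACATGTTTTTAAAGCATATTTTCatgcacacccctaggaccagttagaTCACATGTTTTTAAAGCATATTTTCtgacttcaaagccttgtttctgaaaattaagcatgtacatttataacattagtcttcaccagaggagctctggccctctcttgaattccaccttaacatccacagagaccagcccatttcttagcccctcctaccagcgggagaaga
Ptgs2: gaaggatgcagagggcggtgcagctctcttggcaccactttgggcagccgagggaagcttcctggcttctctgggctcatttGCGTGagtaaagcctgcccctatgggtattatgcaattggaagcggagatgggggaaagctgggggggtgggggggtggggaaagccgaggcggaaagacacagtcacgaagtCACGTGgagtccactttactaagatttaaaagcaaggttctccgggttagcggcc

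The Pla2g4a window held the same 25 bases at 2 places, starting 222 and 172 bases before the start. This was its longest exact repeat, and the likeness goes on upstream of the capitals. Both copies follow the letters cctaggaccagttag and then a base that differs. Of 27457 upstream windows of this length, 0.823% held an exact repeat of at least 25 bases. The Ptgs2 window had 3 matches to the hypoxia response core, and 2 of them overlapped on opposite strands in the palindrome CACGTG. Among the 9 members with a window in the table, 4 held the core (Ptgs1, Ptgs2, Ptgds and Acsl4), and 37.9% of all windows did. Pla2g4a held the TATA box letters TATAAA on 1 strand, as did 13.1% of all windows. It had no match to the hypoxia core, to CCAAT or to the GC box GGGCGG, searched on both strands. Such matches describe letters in these windows and show no binding.

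Pla2g4a, which encodes the calcium-dependent cytosolic phospholipase that frees arachidonate, was lower in the hypoxic glands. Its single probe set read 1243.5, 1183.4, 1150.8 and 994.6 in normoxic pools 1 to 4. In hypoxic pools 1 to 4 it read 712.2, 716.8, 523.9 and 551. Every hypoxic pool lay below every normoxic pool, the nearest values being 716.8 and 994.6, and every reading was far above the bacterial controls.

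The group means were 1143 ± 106 and 626 ± 103 (SD, n = 4 pools each). The log2 difference, hypoxic minus normoxic, was -0.86 with a standard error of 0.13 and a 95% interval from -1.14 to -0.59, a 1.82-fold lower level. It ranked 7 by p among 11106 probe sets tested (limma, adjusted p = 0.0318). This contrast is what drew attention to the gene, so the p-value describes how it was chosen and supports nothing further. In bulk tissue, fewer cells of a type and less RNA per cell cannot be told apart.

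**Figure D1:**
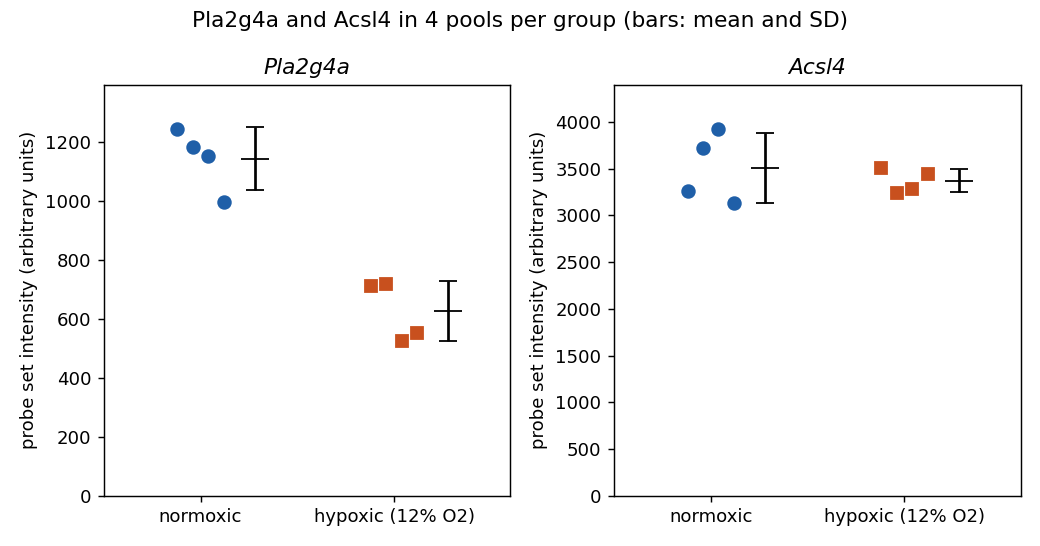
Probe set intensity (arbitrary units, axis from 0) of Pla2g4a and Acsl4 in each normoxic and hypoxic pool, with the mean and SD of 4 pools beside the points. The hypoxic Pla2g4a values, up to 716.8, all lie below the normoxic values, from 994.6 upwards, while the Acsl4 groups overlap.

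Across all tested probe sets, 20 were called at an adjusted p of 0.05, or 0.18%, and those lower in hypoxic glands were 0.063%. Of the 3 member probe sets tested, 1 was called, and nothing is read from that count because the contrast was known when the members were chosen. Over all probe sets, including dim ones, the groups did not overlap for 4.44%, and for the members this held for 1 of 11. The log2 difference of Pla2g4a stayed between -0.93 and -0.78 under 19 alternatives, 8 of which kept its adjusted p below 0.05. The call ended when 1 pool was left out, at adjusted p (limma) of 0.109, 0.0862, 0.0800 and 0.0666 without normoxic pools 1 to 4 and 0.0976, 0.0657 and 0.118 without hypoxic pools 2, 3 and 4. It held without hypoxic pool 1 (0.0414).

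The call also ended with no brightness filter (0.0590), when the variance trend was dropped (0.0770), when the fit took in the ratio of the 5' to the 3' Gapdh probe set (0.117) and with the adipose marker mean as a covariate (0.0501). The difference itself was -0.88 with the Gapdh covariate and -0.92 with the adipose covariate, against -0.86 without them. That Gapdh ratio, which drops as RNA degrades, averaged 0.664 ± 0.065 over the normoxic and 0.609 ± 0.042 over the hypoxic arrays (SD, n = 4; two-sided exact permutation p = 0.2). The same ratio for beta-actin, not used as a covariate, averaged 0.607 ± 0.143 and 0.495 ± 0.190 (two-sided exact permutation p = 0.4). It was lowest in hypoxic pool 1, at 0.249, and highest in normoxic pool 3, at 0.744.

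**Figure D2:**
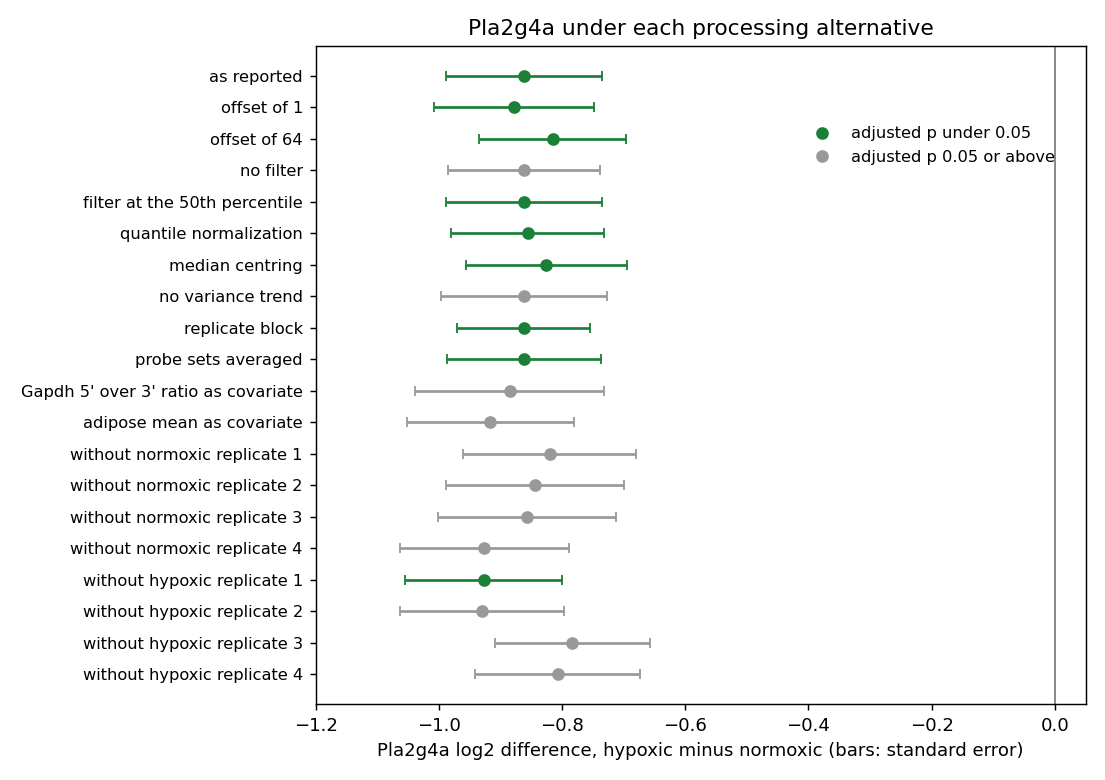
Log2 difference of Pla2g4a, hypoxic minus normoxic, with its standard error, as reported and under each of 19 processing alternatives. All points lie between -0.93 and -0.78, and green marks those with an adjusted p under 0.05.

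The secreted phospholipase gene Pla2g2a was at the background. Its readings ran from 5.0 to 5.6 in normoxic and from 4.4 to 7.2 in hypoxic pools, around the bacterial median of 5.4. Of 30 listed genes for other phospholipases A2 and proteins that bind or regulate them, 18 had a probe set, 17 were bright enough to test, and 0 were called in limma. The median log2 difference of the 17 was -0.04, against -0.01 over all 8011 tested genes. At an unadjusted p under 0.05 there were 2, both with lower means in hypoxic glands, where 8.56% of all tested genes lay under that threshold.

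These were Plaat3, a phospholipase and acyltransferase of adipose and other tissues, at 2353 ± 323 and 1887 ± 181 (log2 -0.31, adjusted p = 0.471), and the secreted phospholipase gene Pla2g10 at 216 ± 18.1 and 174 ± 19.2 (log2 -0.29, adjusted p = 0.576). Their groups overlapped. The lysosomal phospholipase gene Pla2g15 differed by -0.21 (adjusted p = 0.676). These differences were smaller than that of Pla2g4a. Pla2g4a was chosen on its own difference and differences between genes were not tested, so nothing is read from this.

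Cytosolic phospholipase A2 is switched on by calcium and by phosphorylation, and 9 of 13 listed kinase genes could be tested. In limma 0 were called and 1 had an unadjusted p under 0.05, Mapkapk2, a kinase downstream of p38. It read 1474 ± 39.8 in normoxic and 1812 ± 206 in hypoxic pools (log2 0.29, adjusted p = 0.407), and its groups did not overlap, as was so for 5.39% of tested probe sets. Mknk1, which encodes a kinase that phosphorylates the phospholipase, differed by 0.23 (adjusted p = 0.662; 0.14 with the adipose covariate), and Camk2b by 0.10, with a dimmer probe set at 0.51 (adjusted p = 0.547).

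Acsl4, the acyl-CoA synthetase that prefers arachidonate, was bright and did not differ detectably. It read 3259.8, 3722.6, 3926 and 3130.8 in normoxic pools 1 to 4 and 3512.2, 3245.4, 3287.2 and 3443.7 in hypoxic pools 1 to 4. The hypoxic values all lay inside the normoxic range. The log2 difference was -0.05 with a 95% interval from -0.26 to 0.15 (limma, adjusted p = 0.915), and it was 0.0037 without normoxic pool 3. The interval leaves out a change of the size seen for Pla2g4a.

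The log2 ratio of Pla2g4a to Acsl4 within an array ran from -1.76 to -1.38 in normoxic and from -2.61 to -2.15 in hypoxic pools, and the groups did not overlap. Its mean differed by -0.81 between groups. No test is given, since the ratio holds the contrast that the choice of Pla2g4a used.

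The thioesterase genes, whose enzymes split acyl-CoA into free fatty acid and coenzyme A, were near the background. Acot1, the cytosolic form, read 49.6, 30.1, 59.8 and 74.3 in normoxic pools 1 to 4 and 83.7, 86.7, 65.7 and 52.7 in hypoxic pools 1 to 4. Only hypoxic pools 1 and 2 exceeded the highest bacterial value. Acot2, the mitochondrial form, read from 38.9 to 74.1 in normoxic and from 25.3 to 73.9 in hypoxic pools, and 0 of 8 arrays exceeded that value.

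The probe set annotated to both genes read from 48.5 to 104.1 in normoxic and from 67.5 to 124.8 in hypoxic pools, and exceeded the highest bacterial value on 6 of 8 arrays. The groups overlapped on all 3 probe sets, and the log2 differences were 0.37, -0.17 and 0.13 with no test, because each was too dim for the filter. Acot1 and Acot2 are close relatives that lie next to each other in GRCr8, and how far their probes share signal is not known from the files.

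Among 13 other tested genes for acyl-CoA synthetases, fatty acid transporters and thioesterases, 0 were called in limma and 0 had an unadjusted p under 0.05. The median log2 difference was 0.03. Dbi, which encodes an acyl-CoA binding protein, differed by -0.33 (adjusted p = 0.602; -0.16 with the adipose covariate), the acyl-CoA synthetase gene Slc27a3 by 0.24 (0.41 with the Gapdh covariate) and the peroxisomal thioesterase gene Acot8 by 0.16.

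**Figure D3:**
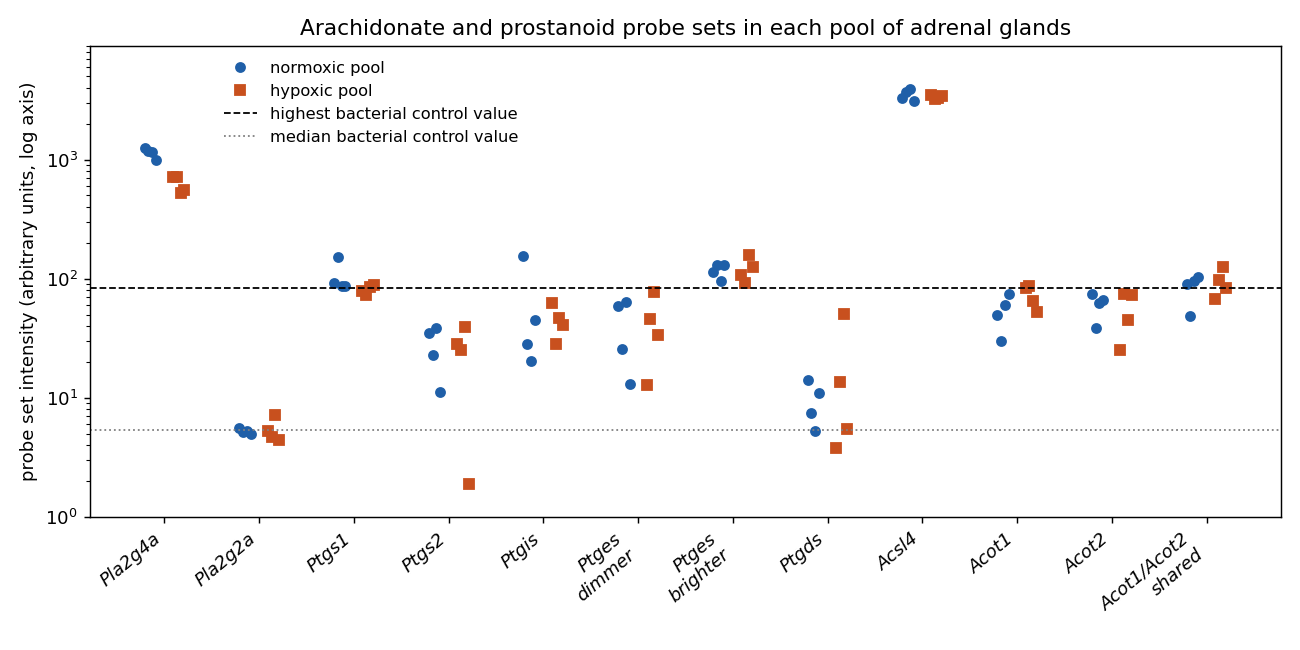
Probe set intensity (arbitrary units, log axis) of the 11 member probe sets and the probe set shared by Acot1 and Acot2, with 4 normoxic pools (circles) and 4 hypoxic pools (squares) each. Pla2g4a, Acsl4 and the brighter Ptges probe set lie above the highest bacterial value, 83.5 (dashed), in all pools, and the others lie at or below it in at least 1 pool.

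The cyclooxygenase genes gave weak signals. Ptgs1, the constitutive form, read 92.7, 152.8, 87.2 and 87.2 in normoxic pools 1 to 4 and 79.6, 72.8, 85.1 and 88.7 in hypoxic pools 1 to 4. Normoxic pool 2 stood apart, and the remaining 7 pools lay between 72.8 and 92.7, close to the highest bacterial value. The log2 difference was -0.28 with no test, -0.11 without normoxic pool 2 and -0.45 with the Gapdh ratio as a covariate.

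Ptgs2, the inducible form, read 34.8, 22.8, 39 and 11.2 in normoxic pools 1 to 4 and 28.5, 25.4, 39.2 and 1.9 in hypoxic pools 1 to 4. All 8 readings lay within the range of the bacterial controls, so no level and no change could be read for the gene that adjoins Pla2g4a. The log2 ratio of Ptgs1 to Ptgs2 ran from 0.91 to 2.12 in normoxic and from 0.87 to 2.55 in hypoxic pools, and the groups overlapped. With Ptgs2 inside the bacterial range, this ratio gives no measure of the balance between the genes.

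The synthases that act on the cyclooxygenase product were also dim. Ptges, the inducible prostaglandin E synthase of membranes, read 113.1, 129.5, 95 and 130.8 in normoxic pools 1 to 4 and 108, 91.4, 157.7 and 124.6 in hypoxic pools 1 to 4 on its brighter probe set. The groups overlapped widely. The log2 difference was 0.02 with a 95% interval from -0.38 to 0.42 (limma, adjusted p = 0.989), and it was -0.06, -0.10 and -0.00017 without normoxic pool 3, hypoxic pool 3 and hypoxic pool 4. Its dimmer probe set read from 12.8 to 78, below the highest bacterial value on all 8 arrays.

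Ptgis, the prostacyclin synthase, read 154, 28.3, 20.4 and 45.2 in normoxic pools 1 to 4 and 62.2, 28.5, 46.5 and 41.2 in hypoxic pools 1 to 4. It exceeded the bacterial controls in normoxic pool 1 alone. Ptgds, the lipocalin-type prostaglandin D synthase, read from 5.3 to 14.2 in normoxic and from 3.8 to 50.7 in hypoxic pools, all within the bacterial range.

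The filter on dim probe sets lay at a signal of 95.2. The brighter Ptges probe set stood just inside it, with a mean signal of 117.3 on the log2 scale turned back, and Ptgs1 stood just outside, at 91.3.

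Some other prostanoid-forming enzymes read well above the background. Of 9 listed genes on the array, 8 were tested, and Ptges2 and Ptges3, which encode further prostaglandin E synthases (Ptges3 is also a co-chaperone), read from 1232 to 1753 and from 3510 to 4400.5. In limma 0 of the 8 were called, and the median log2 difference was -0.17. At an unadjusted p under 0.05 there were 4 (50%, against 8.56% of all tested genes), 3 with lower and 1 with higher means in hypoxic glands. Nothing is read from that share, since the list was chosen with earlier results of Gstm2 and Akr1c3 in these data known. Gstm2, a glutathione transferase, read 373.8, 371.2, 388.7 and 361.1 in normoxic pools 1 to 4 and 279.7, 282.2, 250.8 and 278.5 in hypoxic pools 1 to 4. Its groups did not overlap, and the log2 difference was -0.43 (standard error 0.10; adjusted p = 0.204 in limma).

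The aldo-keto reductase gene Akr1c3, whose product reduces prostaglandins and steroids, read 13007 ± 1474 and 10727 ± 502 (log2 -0.27, adjusted p = 0.468). Cbr1, a carbonyl reductase that acts on prostaglandin E, went the other way, at 2898 ± 240 and 3506 ± 388 (log2 0.27, adjusted p = 0.487). The groups overlapped for both genes. Tbxas1, the thromboxane synthase gene and the last of the 4, read 216 ± 20.8 and 166 ± 21.1 (log2 -0.35, limma adjusted p = 0.502).

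The receptor list gave no call. Of 9 listed genes on the array, which include the nuclear receptors Pparg and Ppard and the receptor-binding protein gene Ptgfrn, 5 were tested, 0 were called in limma and 0 had an unadjusted p under 0.05. Ptger1 differed by -0.25 (adjusted p = 0.816), the thromboxane receptor gene Tbxa2r by -0.16 and Ptgfrn by 0.12. Ptger2 read at most 20.7 and Ptger4 at most 31.7 on any array, within the bacterial range.

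Genes of prostanoid transport and breakdown gave 0 calls among 6 tested, with 3 at an unadjusted p under 0.05 (50%, against 8.56% of all tested genes). Of these 1 is Cbr1, higher in hypoxic glands and counted already among the synthases and reductases. Cyp4f6, a P450 of a family that hydroxylates eicosanoids, read 435 ± 71.8 and 296 ± 17.0 without overlap (log2 -0.52, adjusted p = 0.211). Slco3a1, an organic anion transporter that can carry prostaglandins, read 259 ± 58.6 and 173 ± 21.4 on its brighter probe set (log2 -0.52, adjusted p = 0.389). Its dimmer probe set differed by 0.02.

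Enzymes of the lipoxygenase and epoxide routes gave 0 calls among 8 tested, with 1 at an unadjusted p under 0.05. This was Cyp2j3, an arachidonate epoxygenase, at 122 ± 32.6 and 79.0 ± 19.2 (log2 -0.54, adjusted p = 0.503). Alox15 had a log2 difference of 0.35 and Cyp2j4 one of -0.24, with adjusted p of 0.593 and 0.699. Over all pools the Alox15 groups overlapped, with normoxic pool 1, at 1442.5, above every hypoxic pool, up to 1314.6. Without that pool the Alox15 difference was 0.55, and the remaining normoxic pools, up to 870.2, lay below all hypoxic pools. Nothing is read from that separation, since the pool was singled out after its value was seen. Cyp2j4 was at -0.15 with the adipose covariate.

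Genes that make arachidonate or return it to phospholipid gave 0 calls among 12 tested, with 2 at an unadjusted p under 0.05, and 9 of the 12 had a log2 difference above 0, as did 47.5% of all tested genes. Elovl5, which elongates polyunsaturated fatty acids, read 3084 ± 264 and 3721 ± 178 without overlap (log2 0.27, adjusted p = 0.392), and its dimmer probe set differed by 0.08. The desaturase family gene Fads3 read 202 ± 32.2 and 150.1 ± 7.60 without overlap (log2 -0.38, adjusted p = 0.475). Mboat7, which puts arachidonate back into phosphatidylinositol, differed by 0.21 (adjusted p = 0.703). Of 6 tested genes on the endocannabinoid and diacylglycerol routes, 0 were called and 0 had an unadjusted p under 0.05, with Abhd6 at 0.16 (0.04 with the Gapdh covariate), Mgll at -0.17 and Pnpla2 at -0.16 (-0.05 and -0.03 with the adipose covariate).

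Over all these lists, 83 genes outside the members were tested and 0 were called in limma, with a smallest adjusted p of 0.204. At an unadjusted p under 0.05 there were 12 (14.5%, against 8.56% of all tested genes), 9 with lower and 3 with higher means in hypoxic glands. Nothing is read from this share or from those of single lists, since the lists were chosen with earlier results of these data known. Counting all sizes, 43 were lower and 40 higher, and 52.5% of all tested genes were lower. With each array centred on its median, 36 were lower and 47 higher, while the median of all probe sets moved from -0.02 to 0.02.

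**Figure D4:**
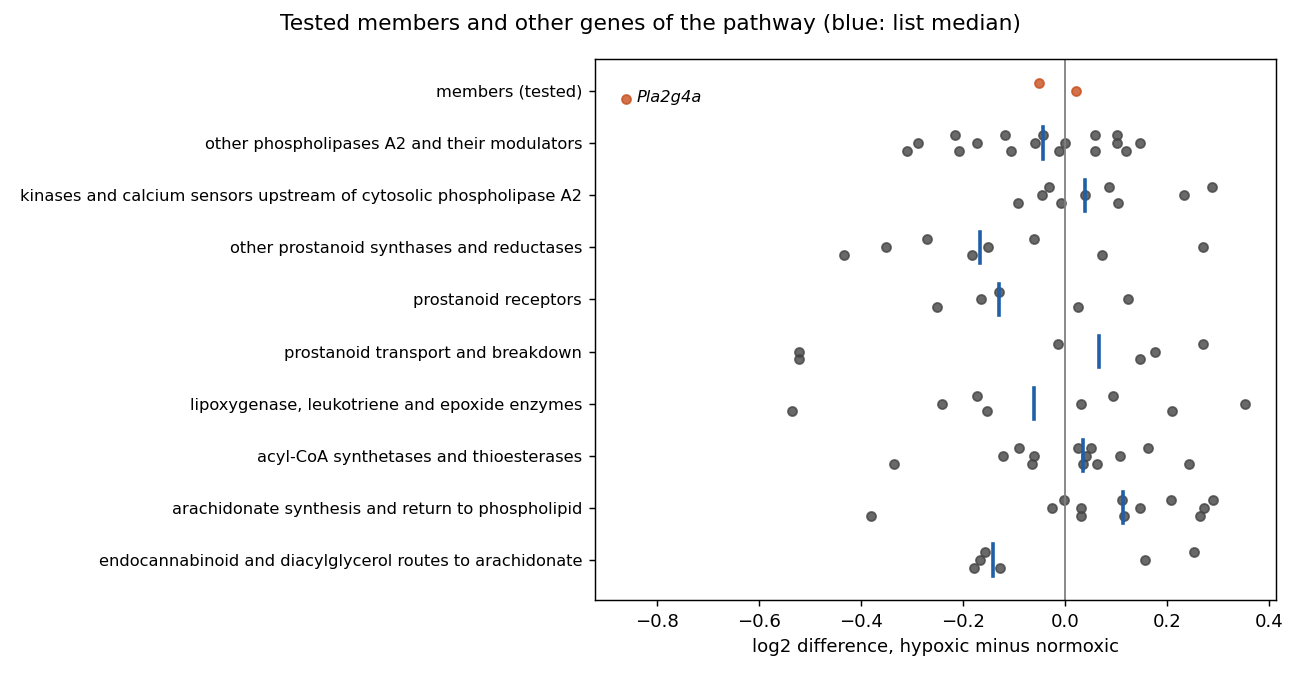
Log2 difference, hypoxic minus normoxic, of the 3 tested member probe sets and of each tested gene of 9 pathway lists at its brightest probe set, with list medians as blue bars. Pla2g4a lies at -0.86, and the other pathway genes lie between -0.54 and 0.35.

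Markers of other cell types are given because the pools are whole tissue. For comparison, 52.5% of all tested genes were lower in hypoxic pools, 47.5% were higher, and 8.56% had an unadjusted p under 0.05. Of 9 measured macrophage and leukocyte genes 6 were lower in hypoxic pools, and their summed signal ran from 4571 to 5751 in normoxic and from 4218.5 to 4957.5 in hypoxic pools (exact permutation p = 0.143, two-sided). In limma 3 of them had an unadjusted p under 0.05. Of 12 measured adipose genes 11 were lower, with sums from 6542 to 15879 and from 6130 to 12522 (exact permutation p = 0.457). Among the adipose genes, Lep lay between 4.9 and 15.2 on every array, within the bacterial range, while Fabp4 was never below 1037. The brown fat gene Ucp1, the 1 adipose gene with an unadjusted p under 0.05, read 1066 ± 789 and 337 ± 176 (log2 -1.46, limma adjusted p = 0.502).

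Of 9 measured endothelial genes 5 were lower (3 after quantile normalization and 4 with arrays centred on the median), with sums from 5423 to 6150.5 and from 5102 to 6069 (exact permutation p = 0.6). In limma 1 of them had an unadjusted p under 0.05, Pecam1, at 288 ± 33.7 and 196 ± 26.7 (log2 -0.53, adjusted p = 0.238). All 9 measured chromaffin genes were higher, with sums from 35341 to 47045 and from 40461 to 56047 (exact permutation p = 0.257), and 4 had an unadjusted p under 0.05. The chromaffin log2 differences were uneven, from 0.003 for Phox2a and 0.04 for Chgb to 0.52 for Dbh. Of 4 measured erythroid genes 3 were higher, with sums from 17841 to 20688 and from 18594 to 28730 (exact permutation p = 0.171), and 2 had an unadjusted p under 0.05. Among them Slc4a1, the red cell anion exchanger, differed by 0.65 and Alas2, the erythroid enzyme of heme synthesis, by 0.42, with limma adjusted p of 0.469 and 0.343.

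The remaining lists had 0 genes at an unadjusted p under 0.05: 4 of 7 smooth muscle and pericyte genes, 1 of 7 fibroblast genes, 3 of 4 Schwann and glial genes, 1 of 3 outer cortex genes and 4 of 8 kidney and liver genes were lower. None of the 11 marker lists had a gene called in limma. The smallest p that 4 against 4 can give is 0.0286. The part of these cells in the Pla2g4a difference was not tested. The adipose covariate above, an unweighted mean of log2 values with dim genes such as Lep included, is given as a processing alternative only.

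The 5 named genes whose profile lay nearest to that of Pla2g4a were Plag1, Pimreg, Acss2, RGD1359108 and Itgb3bp. Likeness was the root mean square distance between log2 values, each gene centred on its own mean over the 8 pools. The distances were 0.14, 0.16, 0.17, 0.18 and 0.18, where the median over tested named genes outside the members was 0.49. Plag1, a zinc-finger transcription factor gene, read 182 ± 9.15 and 116 ± 19.8, and Acss2, which makes acetyl-CoA in the cytosol, read 706 ± 67.2 and 466 ± 50.9. As in Pla2g4a, all 5 genes had hypoxic values below all normoxic values, which the choice by likeness fixes.

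**Figure D5:**
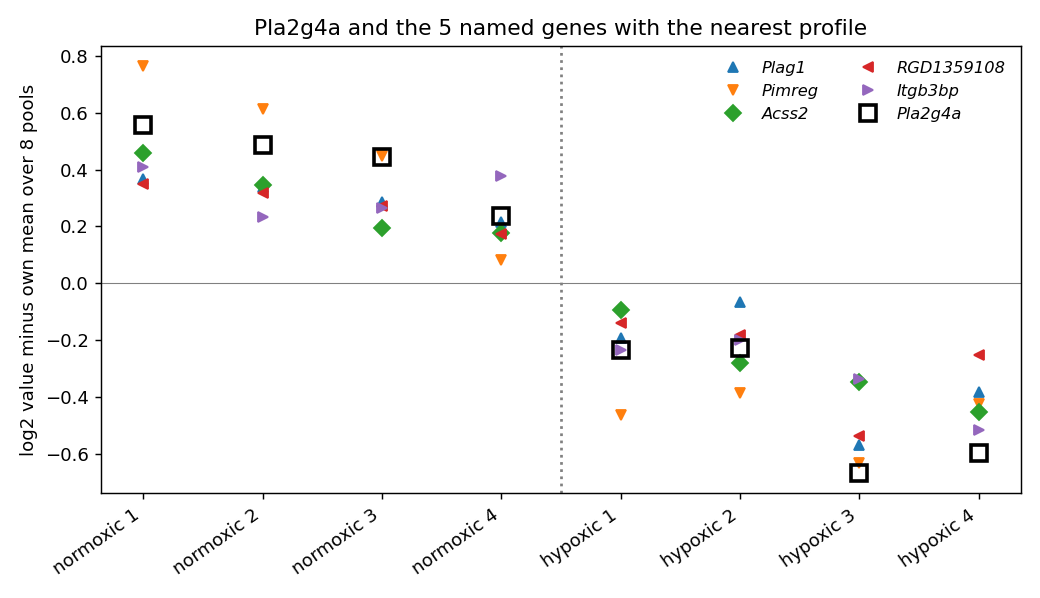
Log2 value of Pla2g4a (open squares) and of the 5 genes with the nearest profile in each of the 8 pools, each minus its own mean over the pools. All 6 genes lie above 0 in normoxic and below 0 in hypoxic pools, with distances to Pla2g4a from 0.14 to 0.18.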

How the data were processed

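Intensity values per probe set were deposited on a linear scale, one column per pool, and the authors had scaled them to a common trimmed mean (500.1 with 2% trimmed at each end, from the values). Per the labels, biotin-labelled cRNA of each pool went onto an array of its own. The sources used here do not name the summarising software. Gene symbols came from the platform annotation, and sequences and gene neighbours from RefSeq (GRCr8). Of the 10 members, 9 matched the promoter table, and Ptgis did not.

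Intensities were floored at 1, raised by 16 and log2-transformed, which understates changes of dim probe sets. A filter on the mean over both groups removed the dimmest 30 percent (signals under 95.2) and left 11106 of 15866 probe sets. The group difference was fitted with limma 3.58.1 (eBayes, trend on) under R 4.3.3, two-sided, and p-values were Benjamini-Hochberg adjusted over every tested probe set. The fit was tested on simulated data. Python 3.11.15 with matplotlib 3.10.9 drew the plots. A gene was represented in lists by its brightest tested probe set. The genes named are all members and, of each pathway list, those called and up to 3 with the lowest p, plus the 5 nearest to Pla2g4a. A few list members and markers were also named for their level, difference or p, chosen after their values were seen. Over 13 exact permutation comparisons of control ratios and marker sums the smallest Benjamini-Hochberg adjusted p was 0.78. Permutation tests had been planned for ratios between members too and are not given, since they hold the contrast used to choose Pla2g4a.

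The members and lists were chosen with earlier results of these data known, including those of Pla2g4a, Gstm2, Akr1c3, Dbi and the adipose markers. Replicate numbers are shared by the groups in the titles, but same-numbered pools did not all deviate together (correlations 0.32, 0.0026, 0.19 and -0.043), so they were not treated as pairs.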

Additional observations from a re-analysis of the deposited data

Results flagged for a closer look

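In 3 of the 102 groups of 4 pools examined, 1 pool lay far from the other 3 by Dixon's 95% limit, and chance flags about 1 in 20. Ptgs1 read 152.8 in normoxic pool 2, where the other normoxic pools read 87.2 to 92.7. Gstm2 read 250.8 in hypoxic pool 3, below 278.5 to 282.2 in the others. Alox15 read 1442.5 in normoxic pool 1, above 811.5 to 870.2 in the others.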

How the results depend on the processing

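The Pla2g4a log2 difference stayed negative under all 19 alternatives. With 1 pool left out it ran from -0.93 to -0.78. Its call was lost with no filter and with no variance trend (both -0.86), with the Gapdh ratio (-0.88) and with the adipose mean (-0.92) as covariates. The number of probe sets called, 20, was 0 with no filter, no trend or the Gapdh covariate, 2 with the adipose covariate, and from 0 to 31 with 1 pool left out. No filter tests more probe sets and also changes the fitted variance, and the cause was not tested for any of these. With a filter at the 50th percentile 28 other pathway genes were lower and 34 higher of 62 tested, which turned the balance of 43 to 40. It also turned with quantile normalization (38 lower, 45 higher), median centring (36 and 47) and the adipose covariate (40 and 43). Leaving out normoxic pool 1, 2 or 3 or hypoxic pool 1 or 2 turned it too, while the other alternatives kept more genes lower than higher. The cause was not tested. With the replicate number as a block, 18 probe sets were called and Pla2g4a kept its call (log2 -0.86, adjusted p = 0.0371 in limma). The small difference of Ptges at its brighter probe set turned to -0.093 with the Gapdh covariate, turned without normoxic pool 3 or hypoxic pools 3 or 4, and ran from -0.10 to 0.13 with 1 pool left out. Acsl4 turned to 0.0037 without normoxic pool 3. Weak signal over background limits Pla2g2a, Ptgs2, Ptgis, Ptgds, Acot1 and Acot2. Of 22 other named probe sets with a difference of at least 0.2, 12 moved by over 1.5 times under at least 1 alternative, and 1 of these, the dim Ptgds probe set, turned in sign. Tbxas1 was not among those examined.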
